A study of Cavia porcellus with 18 samples.

Results

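In the guinea pig hippocampus, 3035 of 5053261 cytosine positions measured by reduced representation bisulfite sequencing (RRBS) carried 500 or more reads. They are described here as the extreme-depth positions. They were chosen by that read number alone, from a deposited table in which all animals are pooled, and they are set against the 5018014 positions with 10 to 100 reads. Although such depth is often taken as a sign of sequence present in many copies, the files hold no copy number, and no genome sequence was used here, so which sequence lies at the positions was not determined.

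Tissue came from the hippocampus of 3 male guinea pigs (Cavia porcellus), wild type and 12 weeks old, and the labels name no treatment of the animals. RRBS after bisulfite had 6 libraries, 3 read at 50 bases and 3 at 100 bases, and 3 libraries of digested DNA had no bisulfite step. The labels of those 3 name the RRBS read table too, and whether their reads are in its counts is not stated. ChIP-seq of the histone mark H3K4me1, ChIP-seq of RNA polymerase II phosphorylated on serine 5 (Pol II PS5) and bisulfite sequencing of H3K4me1-precipitated DNA (ChIP-bisulfite) had 3 libraries each. Every deposited value covers all animals together, so the spread between animals is not known and no difference below could be tested over animals. Intervals of shares are exact 95% binomial (Clopper-Pearson) intervals, and where a count was 0 the limit is 3 counts of the total. The 95% interval of a median is taken from the ordered values of the peaks it covers. Intervals of shares cover counting error only. All intervals treat the counted clusters, CG sites or peaks as independent. Clusters of 1 scaffold may share a sequence, sites of 1 cluster may share reads, and reads are not independent molecules.

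As background, RRBS reads DNA next to the cut sites of restriction enzymes, here MspI and ApeKI, so unique sequence gains its depth fragment by fragment. Mammalian genomes also hold tandem arrays, such as satellite DNA and ribosomal RNA genes, in which a unit is repeated head to tail many times. An assembly built from short reads often shows few of these copies, frequently on short scaffolds that were joined to nothing else, and reads of all copies can then pile up on the copies shown. The same can happen in any assay whose reads are placed on that assembly. H3K4me1 marks enhancers and the flanks of promoters, and Pol II PS5 is the form of the polymerase found at initiation, so peaks of both are commonly read as regulatory elements.

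The depth that chose the positions was very unevenly spread among them. The extreme-depth positions were 0.0601% of all positions and held 17493926 reads, which is 13.3% of all 131062338 RRBS reads. The comparison positions were 99.3% of all positions and held 83.0% of the reads. Depth at the extreme-depth positions had a median of 1349 reads, quartiles of 764 and 3051 and a maximum of 366842, against a median of 17 in the comparison positions. Among the extreme-depth positions, 1154 had 500 to 999 reads, 1665 had 1000 to 9999 reads and 187 had 10000 to 99999 reads. The remaining 29 had at least 100000 reads, lay on only 3 scaffolds and held 41.8% of the reads of all extreme-depth positions. Nothing in the distribution separates positions at the limit, since 5 positions had exactly 500 reads, 4 had 499, and 192 positions with 500 to 549 reads stood beside 262 positions with 450 to 499.

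The extreme-depth positions were concentrated on short scaffolds. The length of a scaffold was taken as the largest coordinate any file gives on it, called its span. Scaffolds spanning up to 10 kb made up 0.303% of the total span, yet they held 1655 extreme-depth positions, or 54.5%, against 0.174% of the comparison positions. Up to 100 kb, the shares were 72.0% of the extreme-depth positions and 0.943% of the comparison positions, on 1.60% of the span. At the other end, scaffolds of 1 Mb or more held 20.8% of the extreme-depth positions and 95.1% of the comparison positions. The names in the files do not tell whether a scaffold is placed on a chromosome.

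Most short scaffolds held none of them. Extreme-depth positions occurred on 228 of 3102 sequences, with a single position on 78, and on 50 of the 1358 sequences spanning up to 10 kb. The 10 scaffolds with the most held 1222 positions (40.3%), and 8 of these 10 spanned at most 10 kb. On scaffold_3061, which spanned 3769 bases, 132 of 182 measured positions (72.5%) passed 500 reads. On scaffold_2739 it was 141 of 214 (65.9%), on scaffold_3129 93 of 156 (59.6%) and on scaffold_3056 104 of 177 (58.8%). The corresponding numbers were 109 of 198 on scaffold_2937, 103 of 208 on scaffold_2372, 119 of 249 on scaffold_2569 and 106 of 296 on scaffold_2876. On these 8 scaffolds between 35.8% and 72.5% of the measured positions thus passed the limit, against far smaller shares on the other 2 of the 10. On scaffold_927, spanning 34530 bases, 212 of 1416 positions (15.0%) passed, with a maximum of 4283 reads. On scaffold_0, spanning 88675165 bases, 103 of 157035 positions passed, scattered over 57 places.

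Read numbers followed a different order from position numbers. The 3 scaffolds with the most reads at extreme-depth positions, scaffold_351, scaffold_219 and scaffold_13, together held 49.0% of the reads at such positions and 6.54% of all RRBS reads. On scaffolds of 1 Mb or more, 9 of 261 clusters of extreme-depth positions (3.45%, interval 1.59 to 6.44) lay within 10 kb of a scaffold's end, against 0.148% of the comparison clusters there.

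Mitochondrial DNA, present in many copies per cell, was not among them. The mitochondrial sequence had 41 measured positions, with a median of 64 reads and a maximum of 498, just under the limit. It carried 3 H3K4me1 peaks and 8 Pol II PS5 peaks, the highest Pol II PS5 score being 408.67, which ranked 6 in the whole list. A run of 11 of its positions was spaced by exactly 8 bases, with 33 to 147 reads each.

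Neighbouring positions share reads, so positions at most 100 bases apart were joined into clusters. The 3035 extreme-depth positions formed 769 clusters and the comparison positions 1835095. Of the extreme-depth clusters, 400 (52.0%) were a single position, against 36.9% of the comparison clusters. Yet 80 clusters (10.4%) had 10 or more positions, against 2.90% of the comparison clusters. Those 80 clusters held 47.1% of the extreme-depth positions and 80.9% of their reads, and 66 of them were on scaffolds spanning up to 100 kb and 11 on scaffolds of 1 Mb or more. The deepest position of a cluster had a median of 799.5 reads in single-position clusters and of 8268.5 reads in clusters of 10 or more.

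The surroundings also differed with scaffold size. Other positions within 500 bases of an extreme-depth cluster had a median of 133 reads on scaffolds spanning up to 100 kb (349 clusters with such positions) and of 40.5 reads on scaffolds of 1 Mb or more (194 clusters). These neighbours are under 500 reads by the rule, and on long scaffolds their depth was nearer that of the comparison positions.

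The deepest clusters were few and short. On scaffold_351, 14 positions at 43956 to 44098 reached 366842 reads and 26 positions at 44230 to 44593 reached 359565 reads. On scaffold_13, 14 positions at 29785391 to 29785527 reached 283950 reads, and the 2 other positions measured within 500 bases had a median of 18 reads. On scaffold_219, 28 positions at 494317 to 494736 reached 227652 reads. After these came 12 positions on scaffold_10 at 20266835 to 20267040 with up to 76312 reads, 8 on scaffold_1 at 80982199 to 80982268 with up to 71890, and 22 on scaffold_71 at 468 to 898 with up to 69642. The next were on the short scaffolds scaffold_2849, with up to 55771 reads, and scaffold_3089, with up to 55341. The tenth, a single position on scaffold_1 at 47927013, had 44623 reads, while its 3 measured neighbours within 500 bases had a median of 22.

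The largest clusters were less deep. The 56 positions on scaffold_927 at 6516 to 6764 reached 2415 reads, and 40 more at 5401 to 5540 reached 4283. The others were 41 positions on scaffold_3056 at 1621 to 2257, 32 on scaffold_3061 at 3239 to 3734 and 31 on scaffold_2569 at 2339 to 3029, with up to 20228, 7056 and 17533 reads in that order.

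Depth changed sharply between neighbouring bases in the deepest clusters, as the plot of reads along 4 of them shows. A position directly beside it was measured for 84.7% of the extreme-depth positions and for 55.3% of the comparison positions. A CG has a cytosine on each strand, at adjacent bases. In the 1002 pairs with 500 or more reads at both positions, the deeper had a median of 2.0 times the reads of the shallower. In the 1482 pairs whose first position had 500 or more reads, whatever the depth of the second, the median was 2.7 times. These ratios come from the depths that chose the positions, and the comparison positions, held to 10 to 100 reads, give no like ratio. On scaffold_351 the position at 44038 had 366842 reads and its neighbour at 44039 had 589. In the second cluster of that scaffold, the position at 44453 had 359565 reads and its neighbour at 44454 had 279714.

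**Figure D1:**
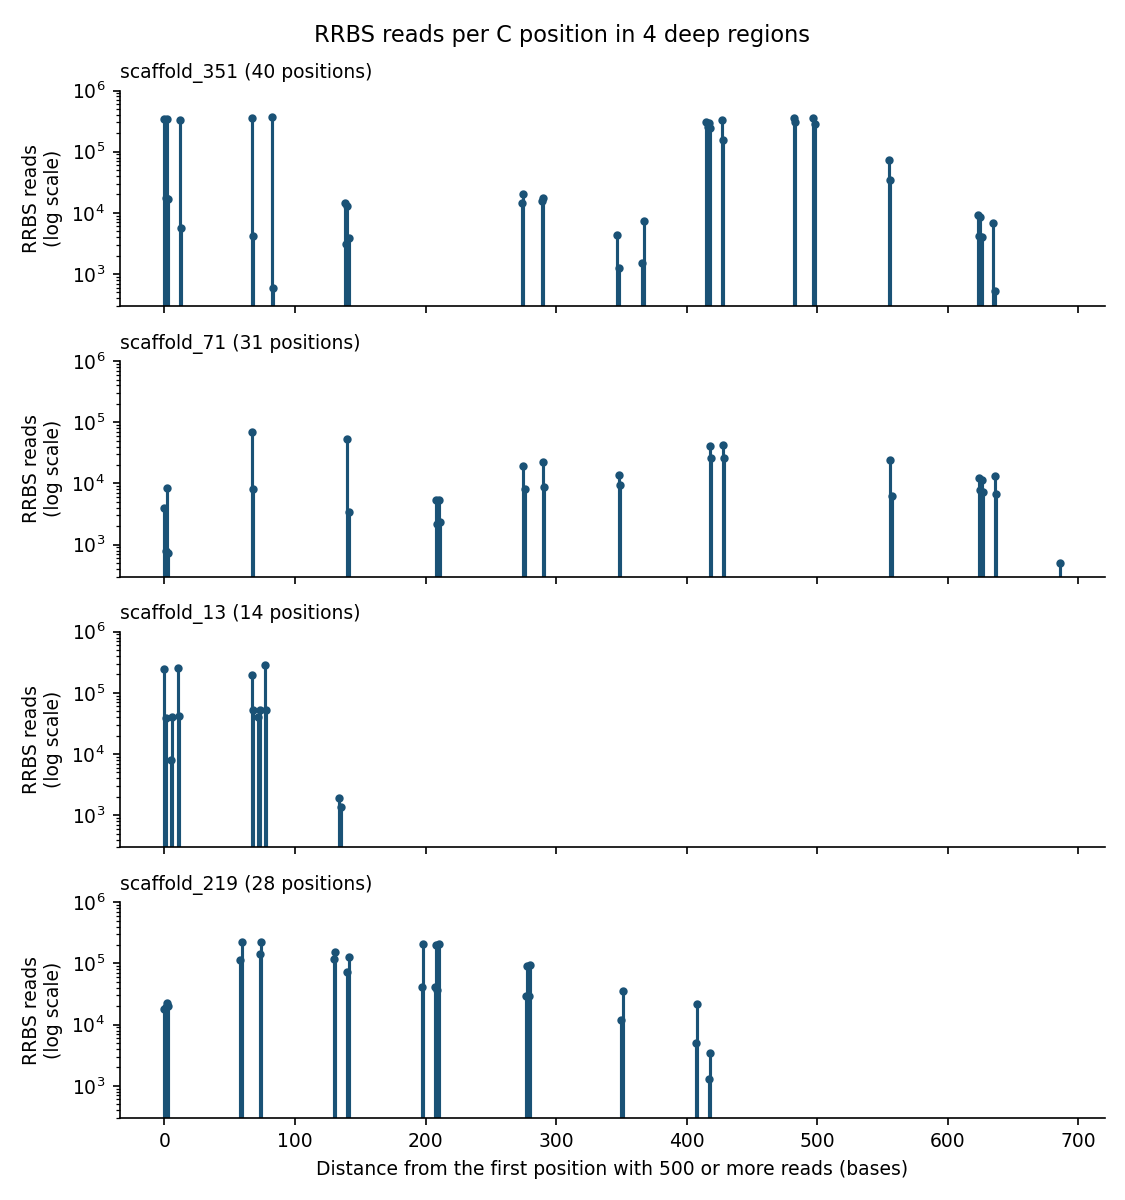
RRBS reads (log scale) at every position with 500 or more reads in 4 deep regions, by distance in bases from the first such position. Each point is 1 C position of the pooled animals; scaffold_351 reaches 366842 reads, scaffold_13 283950, scaffold_219 227652 and scaffold_71 69642.

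Some distances between extreme-depth positions recurred far more often than others. Pairs of extreme-depth positions lay 208 bases apart in 482 cases, 11.3 times the mean of 42.7 pairs per distance over 100 to 900 bases. Maxima close to whole multiples of 208 were at 416 bases with 331 pairs, at 623 bases with 228 and at 831 bases with 168. Other maxima lay below 208 bases, at 138 bases with 208 pairs and at 128 with 186. Between 208 and 416 bases there were maxima at 275 and 346, with 162 pairs each. Below 100 bases, pairs were common at 70 bases, with 267, at 67 bases, with 261, and at 10 bases, with 253. Whether these positions lie in copies of 1 sequence was not determined. The comparison positions of the same scaffolds spanning up to 100 kb reached 1.90 times their mean near 208 bases, and comparison positions of all scaffolds reached 1.18 times. On scaffolds of 1 Mb or more, extreme-depth pairs at 208 bases were also the most common over 100 to 900 bases, with 28 pairs. Of these, 16 were on scaffold_71 and 10 near the deepest position of scaffold_7, so the count is not general to long scaffolds. Shorter distances on long scaffolds, such as 10 bases (46 pairs) and 67 bases (39 pairs), were more common.

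**Figure D2:**
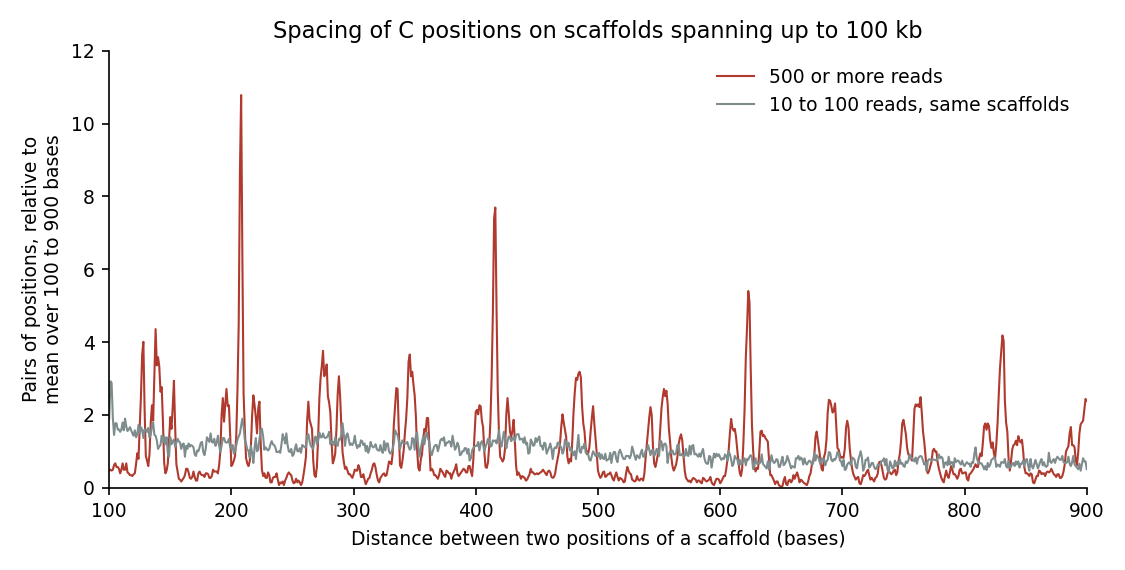
Number of position pairs at each distance on scaffolds spanning up to 100 kb, relative to the mean over 100 to 900 bases, for positions with 500 or more reads and positions with 10 to 100 reads on the same scaffolds. The first line is highest at 208 bases, with 433 pairs, followed by 416 and 623 bases, and has smaller peaks at 138, 128, 275, 346 and 831 bases among others; distances under 100 bases are not drawn.

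The spacing was found on many scaffolds. Of the 27 scaffolds with at least 20 extreme-depth positions (within 2000 bases of the deepest position, on scaffolds over 1 Mb), 22 had a most common distance of 207 or 208 bases when distances of 100 to 300 bases were counted. Counted in that way, with 40 of the 47 positions of scaffold_7, these 22 scaffolds held 1734 extreme-depth positions (57.1%). Of the 22 scaffolds, 17 spanned at most 10 kb. The exceptions were scaffold_927, scaffold_219, scaffold_1653, scaffold_2081 and scaffold_2608, with most common distances of 104, 277, 134, 102 and 127 bases in that order. These scaffolds were grouped by a distance found in the same data, so the counts are descriptive.

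On scaffold_351, 12 pairs of extreme-depth positions were 415 bases apart. In 5 of the 12 the depths were close, the second having 0.882 to 0.99 times the reads of the first, as with 366842 and 359565 reads. In the other 7 the second had 5.59 to 475 times the reads of the first, as with 13178 and 73707 reads, or 589 and 279714 reads. Distances also recurred between scaffolds, in regions picked after their values were seen. Each of the 6 pairs among the 4 plotted regions was compared at its best offset and direction, and no share that chance would give was computed. The 24 positions of the scaffold_351 and scaffold_71 regions that coincided were 60% of the 40 on scaffold_351 and 77.4% of the 31 on scaffold_71. Read in opposite directions, 10 positions of the scaffold_13 and scaffold_219 regions coincided, which is 71.4% of the 14 on scaffold_13 and 35.7% of the 28 on scaffold_219. The scaffold_13 region shared 5 positions with scaffold_351 and 5 with scaffold_71, and the scaffold_219 region shared 13 with each of these.

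Extreme-depth clusters lay in H3K4me1 peaks more often than comparison clusters over the whole assembly, and the order was the opposite on long scaffolds. An overlap of at least 1 base was found for 547 of 769 extreme-depth clusters (71.1%, interval 67.8 to 74.3) and for 45.6% of the comparison clusters, and 45.6% is also the share of clusters of all RRBS positions. On scaffolds spanning up to 10 kb the shares were 99.2% of extreme-depth clusters and 57.3% of comparison clusters, where H3K4me1 peaks covered 56.2% of the span. On scaffolds over 10 kb and up to 100 kb they were 88.2% of extreme-depth clusters and 52.4% of comparison clusters. Over 100 kb and up to 1 Mb they were 78.9% of extreme-depth clusters and 45.0% of comparison clusters. On scaffolds of 1 Mb or more, 83 of 261 extreme-depth clusters (31.8%, interval 26.2 to 37.8) overlapped a peak, against 45.5% of the comparison clusters. Single positions carried that reversal, with 22.5% of 173 extreme-depth clusters against 41.6% of comparison clusters. Clusters of 2 or more positions there had 50% (interval 39.1 to 60.9, 88 clusters) against 47.8% of comparison clusters.

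Pol II PS5 peaks, which are far rarer, were overlapped more often by extreme-depth clusters in every class of scaffold size, with intervals apart. Overlap was found for 365 of 769 extreme-depth clusters (47.5%, interval 43.9 to 51.1) and for 0.952% of the comparison clusters, with 0.969% of clusters of all RRBS positions as background. On scaffolds spanning up to 10 kb the shares were 92.0% of extreme-depth clusters and 22.4% of comparison clusters, where these peaks covered 22.2% of the span. On scaffolds over 10 kb and up to 100 kb they were 46.3% of extreme-depth clusters and 7.68% of comparison clusters. Over 100 kb and up to 1 Mb they were 18.7% of extreme-depth clusters and 2.7% of comparison clusters. On scaffolds of 1 Mb or more, 50 of 261 extreme-depth clusters (19.2%, interval 14.6 to 24.5) overlapped a Pol II PS5 peak, against 0.784% of the comparison clusters. Of single positions there, 9.83% in the extreme-depth and 0.472% in the comparison group overlapped, and of clusters of 2 or more positions 37.5% in the extreme-depth and 0.965% in the comparison group.

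Both kinds of peak coincided at the same clusters. Of the extreme-depth clusters, 354 (46.0%) lay in both, against 0.710% of the comparison clusters, and 211 lay in neither. Among the 80 clusters of 10 or more positions, 77 lay in an H3K4me1 peak and 75 in a Pol II PS5 peak. On the 22 scaffolds with the 207 or 208 base spacing, 97.2% of 213 extreme-depth clusters lay in an H3K4me1 peak and 96.2% in a Pol II PS5 peak. On the 19 of these scaffolds that span up to 100 kb, peaks covered 64.6% of the span for H3K4me1 and 49.6% for Pol II PS5. H3K4me1 peaks there held 99.5% of 200 extreme-depth clusters and 84.7% of 203 comparison clusters, and Pol II PS5 peaks held 98.5% of the extreme-depth clusters and 70.0% of the comparison clusters. On all 128 scaffolds up to 100 kb with extreme-depth positions, H3K4me1 peaks held 95.3% of 385 extreme-depth and 79.7% of 2288 comparison clusters, and Pol II PS5 peaks held 75.8% of the extreme-depth and 23.8% of the comparison clusters. Outside the 22 scaffolds with the 207 or 208 base spacing, 61.2% of 556 extreme-depth clusters lay in an H3K4me1 peak and 28.8% in a Pol II PS5 peak.

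The share in Pol II PS5 peaks was already higher at depths just below the limit of 500 reads. By position, it was 1.35% at 10 to 19 reads, 1.32% at 20 to 49, 1.65% at 50 to 100, 5.76% at 101 to 199 and 31.8% at 200 to 499. It went on to 65.6% at 500 to 999 reads, 80.8% at 1000 to 9999 and 94.4% at 10000 or more. H3K4me1 overlap started at 48.9% and reached 96.3% over the same classes. Restricted to scaffolds of 1 Mb or more, H3K4me1 overlap stayed between 47.2% and 52.0% from 500 to 9999 reads and was 86.2% among the 58 positions with 10000 or more. The Pol II PS5 share on those long scaffolds was 23.3%, 45.8% and 81.0% in the classes from 500 reads. The share of positions on scaffolds spanning up to 100 kb moved along with depth, from 0.848% at 10 to 19 reads to 78.7% at 1000 to 9999 and 50% at 10000 or more, and its part in these shares on all scaffolds was not tested.

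**Figure D3:**
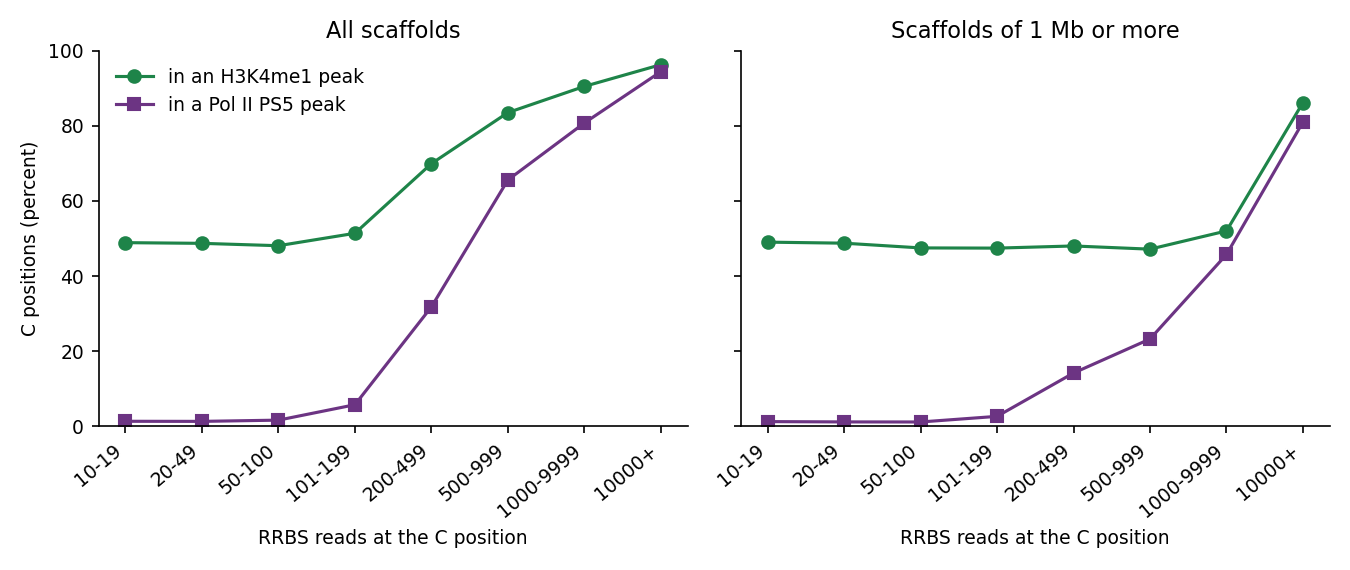
Share of C positions (percent) that lie in an H3K4me1 peak or a Pol II PS5 peak, by RRBS reads at the position, on all scaffolds and on scaffolds of 1 Mb or more. In the all-scaffold panel the Pol II PS5 share is 1.35% in the lowest class and 94.4% in the highest; on long scaffolds the H3K4me1 share is near the lowest class until 10000 reads.

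Peaks that hold extreme-depth positions were few in each list, and a part of them stood very high in it. The scores are the authors' and rank peaks within a list only. Of 327682 H3K4me1 peaks, 289 (0.0882%) held an extreme-depth position, and of 67423 Pol II PS5 peaks 156 (0.231%) did. They nevertheless made up 9 of the 10 H3K4me1 peaks with the highest scores, 43 of the top 100 and 57 of the top 1000. In the Pol II PS5 list they made up 7 of the top 10, 20 of the top 100 and 59 of the top 1000. Most peaks with extreme-depth positions ranked lower, as the top 1000 held 19.7% of them for H3K4me1 and 37.8% for Pol II PS5.

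The H3K4me1 scores fall on a high scale, from 42 upwards, and a low scale. On the high scale, the 185 peaks with extreme-depth positions had a median score of 63.5 (quartiles 51.5 and 231.5), against 58 (quartiles 53 and 65.5) for 134916 peaks with comparison positions and no extreme-depth position. The medians were close, the lower quartile was lower and the upper quartile was far higher. No low-scale peak was in the top 1% of the list. Of the high-scale peaks, 34.6% of those with extreme-depth positions were in it, against 2.34% of the others. On scaffolds of 1 Mb or more the median was 78.75 for peaks with extreme-depth positions and 58 for the others. On the low scale, 104 peaks with extreme-depth positions had a median of 2.04, against 1.68 for the others. Peak width differed as well, with medians of 4629 bases for peaks with extreme-depth positions and 3518 bases for the others on the high scale, and its part in the scores was not tested.

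Pol II PS5 peaks with extreme-depth positions had a median score of 7.32 (quartiles 4.15 and 20.5, 156 peaks), against 3.57 (quartiles 3.01 and 5.43) for 14773 peaks with comparison positions and no extreme-depth position. On scaffolds of 1 Mb or more the median was 15.7 for 43 peaks with extreme-depth positions and 3.59 for the others. Peaks among the top 1% of the list were 33.3% of those with extreme-depth positions and 2.01% of the others. Median width was 588 bases with extreme-depth positions and 301 bases in the others.

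Some of the highest H3K4me1 peaks held the deepest regions and others held shallower ones. The first was on scaffold_71 at 314 to 1570 with a score of 3164 and 31 extreme-depth positions, and the second on scaffold_351 at 43783 to 45044 with 3014 and 40 positions. The third, on scaffold_927 at 40 to 10214, scored 2831 with 192 positions of at most 4283 reads, and the fourth, on scaffold_219 at 494012 to 495273, scored 2490 with 28. Scores of 2237.5 on scaffold_1653, 1778.5 on scaffold_3061, 1671 on scaffold_2372, 1622 on scaffold_10, 1458.5 on scaffold_7 and 1440 on scaffold_2081 completed the 10 highest with extreme-depth positions. The deepest position had 9094 reads in the scaffold_1653 peak and 825 reads in the scaffold_2081 peak. Conversely, the deep clusters of scaffold_13, scaffold_1 at 80982199 and scaffold_2849 lay in peaks ranked 23, 30 and 274. The peak ranked 7, on scaffold_1434 with 1720, held none, and its deepest position had 293 reads. On the low scale the highest score of the list, 14.8, belonged to the peak on scaffold_10 at 20266601 to 20267264, which holds the cluster with up to 76312 reads.

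Pol II PS5 peaks gave a different order. The highest was on scaffold_1 at 68170505 to 68170697, with a score of 1149.38 and 8 extreme-depth positions of up to 7374 reads. Next among those with such positions came scaffold_9 with 526.31, scaffold_0 with 419.96, scaffold_13 with 413.62, scaffold_90 with 377.27, scaffold_36 with 353.83 and scaffold_17 with 264.99. The scaffold_13 peak holds the cluster with 283950 reads. The 3 last of the 10 lay on scaffold_1, with scores of 169.76 and 145.27, and on scaffold_2, with 131.92. All 10 were on scaffolds of 1 Mb or more, and 8 of the 10 were 192 to 259 bases wide. The scaffold_351 and scaffold_71 peaks, first in H3K4me1, had Pol II PS5 scores of 29.65 and 28.52. The peak ranked 2 in the list, on scaffold_1289 with 563, had no position above 80 reads.

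The second bisulfite assay, which was not used to choose the positions, also had many reads in some of the peaks that hold them. Among the H3K4me1 peaks of the authors' table of averages, 41 held extreme-depth positions, with a median of 34.8 ChIP-bisulfite reads per C position (interval of the median 24 to 80.9), against 16 in the 98123 other peaks. At least 100 reads per C position were found in 11 of the 41 peaks (26.8%, interval 14.2 to 42.9). They were found in 0 of the 98123 others, which allows a share of up to 0.00306% (3 counts of 98123), and the share over all peaks was 0.0112%. The highest of the others had 73.2 reads per C position. All 10 peaks with the most ChIP-bisulfite reads per C position, and 21 of the top 100, held extreme-depth positions. RRBS reads per C position, which the rule used, had a median of 379 in peaks with extreme-depth positions and 20 in the others. Of the 41 peaks, 34 lay on scaffolds of 1 Mb or more and 6 on scaffolds spanning up to 100 kb. Among those 6, 1 had at least 100 ChIP-bisulfite reads per C position. None of the 41 lay on scaffold_351 or scaffold_219, and most short scaffolds with extreme-depth positions were not covered.

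These values rest on ChIP-bisulfite columns that had to be moved by whole lines to meet their peaks. With the columns in deposited order, the medians were 18.6 in peaks with extreme-depth positions and 16 in the others, and the ratio of the medians was 1.16 in place of 2.17.

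Depth in both assays was not proportional. The peak on scaffold_13 at 29785154 to 29785754 had 1306812 RRBS reads over 15 positions and 570190 ChIP-bisulfite reads over 14. The peak on scaffold_1 at 68170294 to 68170883 had 36859 RRBS reads and 43628 ChIP-bisulfite reads, over 8 positions each, and it overlaps the Pol II PS5 peak with the highest score. The peak on scaffold_71 had 472503 RRBS reads over 37 positions and 40501 ChIP-bisulfite reads over 30. By contrast, the peak on scaffold_49 at 8368004 to 8369291 had 5449.86 RRBS reads per C position and 31.7 ChIP-bisulfite reads per C position.

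**Figure D4:**
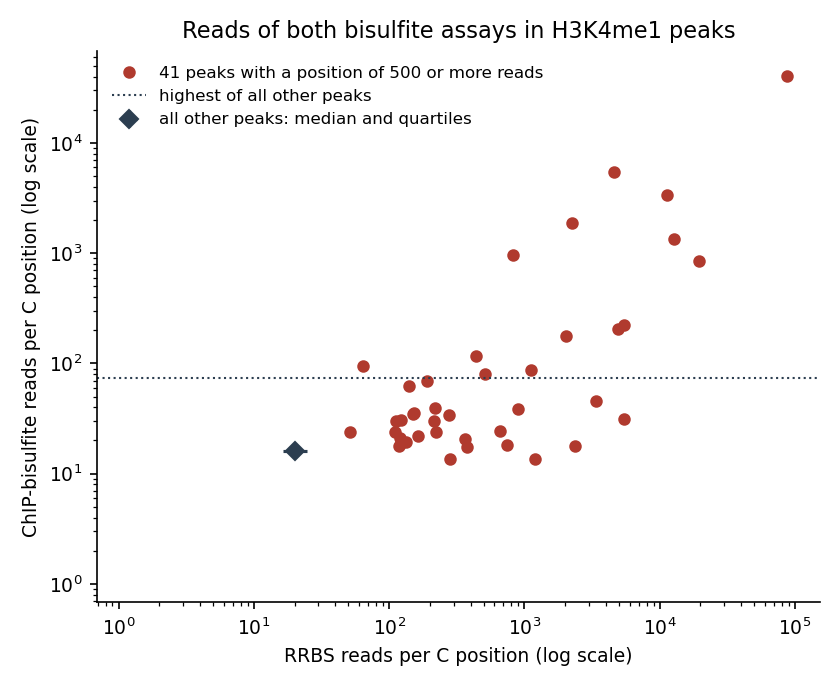
ChIP-bisulfite reads per C position against RRBS reads per C position (both log scales) in H3K4me1 peaks of the pooled animals. The 41 points are peaks with a position of 500 or more RRBS reads and the diamond is the median of the 98123 others with quartiles; 11 points have 100 or more ChIP-bisulfite reads per C position, and the dotted line is the highest of the others, 73.2.

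The deposited site table gives methylation per CG where both assays measured it. This held for 311 extreme-depth positions (10.2%), in 30 clusters on 12 scaffolds, and 204 of them (65.6%) were on scaffold_927. Over all 311, the median level was 23% in RRBS (quartiles 15 and 57) and 18% in ChIP-bisulfite (quartiles 7 and 50). The 165661 comparison sites had medians of 60% in RRBS (quartiles 17 and 90) and 31% in ChIP-bisulfite (quartiles 0 and 100). That difference depended on scaffold_927, where the extreme-depth sites had medians of 18% in RRBS and 10% in ChIP-bisulfite. The 461 comparison sites of the same scaffold had 19% in RRBS and 8% in ChIP-bisulfite, so the level there was as low at shallow positions. Without scaffold_927, the 107 extreme-depth sites had medians of 68% in RRBS and 64% in ChIP-bisulfite, and the direction against the comparison sites was the opposite.

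Position relative to genes moved with this. Of the extreme-depth sites, 55.9% lay within 1000 bases of a listed transcription start site, against 13.4% of the comparison sites, and 150 of the 174 were on scaffold_927. Beyond that distance the RRBS medians were 52% for 137 extreme-depth sites and 65% for comparison sites. The 137 include sites of scaffold_927, and the part of that scaffold in their lower median was not tested. CG-rich promoters are commonly unmethylated, as background, and comparison sites within 1000 bases of a start site had a median of 6%. Whether a site is exonic or intronic is not given in the files.

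Off scaffold_927, the clusters with the most measured sites had intermediate mean levels, taken over single sites that ran from low to high. On scaffold_10, 22 sites at 4661814 to 4662150 averaged 63.8% ± 26.6 in RRBS and 63.8% ± 27.1 in ChIP-bisulfite (SD over sites), with ENSCPOG00000019334 as the nearest listed gene. Single sites of that cluster ranged from 6% to 86% in RRBS. The 12 sites of the cluster with up to 76312 reads averaged 55.9% ± 31.2 in RRBS and 54% ± 34.2 in ChIP-bisulfite, with single sites from 2% to 87% in RRBS, a median of 150836 bases from the nearest listed start site, that of ENSCPOG00000002614. On scaffold_13, 19 sites at 48356635 to 48356762 averaged 55.7% ± 21.0 in RRBS and 54.4% ± 20.5 in ChIP-bisulfite, with single sites from 16% to 88% in RRBS. On scaffold_927, the 56 sites at 6516 to 6764 averaged 12.0% ± 5.69 in RRBS and 9.68% ± 9.10 in ChIP-bisulfite, with ENSCPOG00000021486 as the nearest listed gene. The files pair these gene identifiers with no symbols.

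The assays lay closer together at extreme depth. The median absolute difference between RRBS and ChIP-bisulfite was 9 percentage points at the extreme-depth sites and 18 at the comparison sites, and differences of at least 40 points occurred at 3.54% of the extreme-depth and 29.1% of the comparison sites. Spearman's rho between the assays was 0.73 over the 311 extreme-depth sites and 0.59 over the comparison sites, as a description of sites that share libraries and, within a cluster, reads. Within parts of the extreme-depth sites rho was lower, 0.37 over the 204 of scaffold_927 and 0.67 over the 107 others. Comparison sites of scaffold_927 had a rho of 0.25. Depth moved with the differences between assays, since a level of exactly 0% or 100% was listed in ChIP-bisulfite at 4.18% of the extreme-depth sites and 66.8% of the comparison sites. In RRBS it was listed at no extreme-depth site and at 37.0% of the comparison sites. The part of depth in the differences was not tested.

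**Figure D5:**
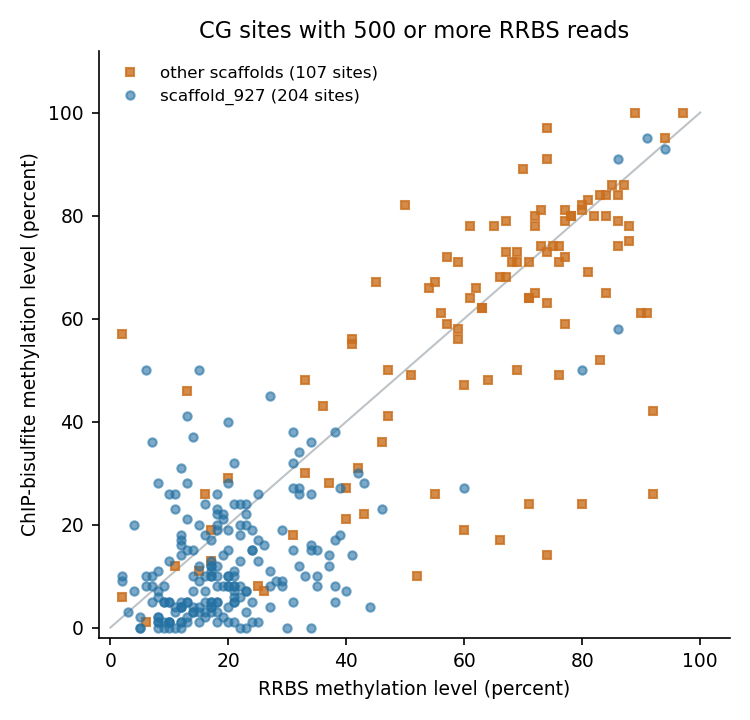
Methylation level (percent) in ChIP-bisulfite against RRBS at the 311 CG sites with 500 or more RRBS reads, with the line of equal levels. Sites of scaffold_927 (204) gather at low levels, with medians of 18% in RRBS and 10% in ChIP-bisulfite, and those of other scaffolds (107) around 68% and 64%.

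The authors' deposited table of differentially methylated sites held 4 of the 311 extreme-depth sites (1.29%, interval 0.352 to 3.26). It held 13.2% of the comparison sites and 13.1% of all sites. On scaffold_927 the authors' deposited table held 4.56% of the 461 comparison sites (interval 2.84 to 6.88). Without scaffold_927, the authors' deposited table held 3.74% of the 107 extreme-depth sites (interval 1.03 to 9.3). In the authors' deposited table, 3 of the 4 were neighbours on scaffold_6, at 3016605, 3016615 and 3016627, with RRBS levels of 74%, 80% and 71% and ChIP-bisulfite levels of 14%, 24% and 24%. The fourth in the authors' deposited table was on scaffold_90 at 248, with 92% in RRBS and 26% in ChIP-bisulfite. None of the 204 sites on scaffold_927 was in the authors' deposited table, which allows a share of up to 1.47% (3 counts of 204). That limit and the intervals above treat sites as independent, although the 311 sites form 30 clusters and the 204 form 11.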

How the data were processed

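The authors deposited RRBS reads per C position as counts, for positions of at least 10 reads with all animals pooled, per the file names and labels. H3K4me1 and Pol II PS5 peaks carry the authors' deposited score. CG methylation levels are whole percent per the file headers, as deposited. In the authors' table of averages, ChIP-bisulfite reads are deposited counts and the deposited RRBS reads, a few of them not whole, were taken as estimated counts. Per the submitters' processing notes, Bowtie2 2.2.3, SAMtools 1.1, MACS2, HOMER 4.6, Bismark 0.12.5, methylKit and BSMAP 2.74 were used, with no role or order. No genome build is named (it is not given in the sources used here). Coordinates are as deposited, and whether counting starts at 0 or 1 is not stated.

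Positions with 500 or more reads, and separately those with 10 to 100, were joined at gaps of at most 100 bases. A cluster overlapped a peak by at least 1 base. Scaffold ends were the largest coordinate in any file. Each CG site was counted once, with its nearest start site. ChIP-bisulfite columns of the table of averages were displaced by whole lines. The displacement, allowed to be up to 6 lines, was fitted to the site levels with a penalty of 4 per change. Lines moved numbered 125585 (63.4%). The 98182 peaks listed under both statuses had identical entries in 18.5% before and 99.98% after, and the 98164 identical ones were used. Steps were tested on simulated data. Named regions are the 10 deepest and 5 largest clusters, the 10 scaffolds with most positions, and the 10 highest peaks of each list with such positions. Genes are those listed nearest to the site clusters with most sites. Regions named for contrast or for shared spacing were chosen after their values were seen. The positions and lists were chosen with earlier results of these data known. Depth is known only as pooled counts, and no test over animals was possible. Python 3.11.15, numpy 2.4.6, pandas 2.3.3, scipy 1.17.1 and matplotlib 3.10.9 were used. Alternatives varied the read limit, the gaps, the overlap rule, the comparison positions and the scaffolds.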

Additional observations from a re-analysis of the deposited data

How the results depend on the processing

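Values are extreme-depth minus comparison, in percentage points, or the ratio of their medians. The H3K4me1 overlap difference was 25.6 points. It was 21.5 with a limit of 300 reads, 33.5 with 1000 reads, 32.9 with gaps of 10 bases, 17.8 with gaps of 1000 bases, 20.6 for peaks within 500 bases, 39.5 by position and 19.7 for high-scale peaks. It reversed to -13.7 on scaffolds of 1 Mb or more. The Pol II PS5 difference of 46.5 points became 32.6 with 300 reads, 61.3 with 1000 reads, 65.0 and 28.8 with gaps of 10 and 1000 bases, 59.8 within 500 bases, 74.6 by position and 18.4 on scaffolds of 1 Mb or more. The H3K4me1 score ratio of 1.09 was 1.03 with 300 and 2.65 with 1000 reads, and the Pol II PS5 ratio of 2.05 was 1.53 and 3.46. The excess on scaffolds up to 100 kb, 49.1 points by cluster, was 71.1 by position, 37.9 with 300 reads and 60.8 with 1000. The RRBS level difference of -37 points was -40 with 1000 reads and -11.2 by cluster. The ChIP-bisulfite ratio of 2.17 was 1.40 with 300 reads, 5.05 with 1000 reads and 1.16 in deposited order. With 1000 reads the median in peaks with extreme-depth positions was 80.9, the upper end of the main interval of 24 to 80.9. Alternatives chosen after seeing the data gave, for clusters of 2 or more positions, 37.9 points for H3K4me1 and 73.4 for Pol II PS5, and 2.21 and 36.5 on scaffolds of 1 Mb or more. On scaffolds up to 100 kb with extreme-depth positions the differences were 15.6 points for H3K4me1 and 52.0 for Pol II PS5. On the long scaffolds the score ratios were 1.36 and 4.37, and without scaffold_927 the level difference reversed to 8 points. The causes were not tested. Counting the ChIP-bisulfite ratio with 1000 reads, 11 alternatives did not move a value beyond its interval. No paired analysis was possible because the deposited values pool the animals, and for the same reason no replicate could be left out. Shares hold for these pooled libraries only, and ChIP-bisulfite depth per site was not analysed here.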
